A study of Rattus norvegicus with 6 samples.

Results

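The platelet-derived growth factor (PDGF) and fibroblast growth factor (FGF) ligands and receptors were examined in NRCFs, cardiac fibroblasts in primary culture from the hearts of newborn rats. The 10 genes were Pdgfa, Pdgfb, Pdgfc, Pdgfra, Pdgfrb, Fgf2, Fgf7, Fgf10, Fgfr1 and Fgfr2, found by symbol among the 21857 genes in the count files. All 10 passed the filter on low counts that left 12941 genes, with Fgf7 over its cutoff of 0.695 CPM in 2 of 3 Vector libraries and in all 3 labelled FTO. The 6 RNA-seq libraries were 3 samples labelled WT, which received the empty plasmid (Vector), and 3 labelled FTO overexpression, which received a plasmid with the rat coding sequence of FTO, an RNA demethylase of N6-methyladenosine. The pups were at most 3 days old. The design names Sprague-Dawley rats, while the strain label reads Noway. The transfection was transient and the labels do not say whether the libraries came from separate cell preparations, so the p-values measure the spread between these libraries, which may be technical.

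PDGF ligands are dimers that bind receptor tyrosine kinases on mesenchymal cells. PDGF-A and PDGF-C act mainly through PDGFRα, the receptor of fibroblasts, and PDGF-B through both PDGFRα and PDGFRβ, the latter typical of pericytes and smooth muscle. FGF ligands need heparan sulfate to bind their receptors. FGF7 and FGF10 signal from mesenchyme to the IIIb splice form of FGFR2, and FGF2 is a broad mitogen that acts on FGFR1. In the heart both systems drive fibroblast growth, migration and matrix production.

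Library totals ran from 13178952 to 17857999 counts. Fto was at 88.3 ± 1.20 CPM, counts scaled to the size of the library, in Vector and 92.3 ± 1.32 CPM in the other group (SD, n = 3 each), a log2 fold change of 0.06 (SE 0.0468, adjusted p = 0.239, 95% interval of the fold 0.976 to 1.12). No rise of Fto was detected, so the second group is called the libraries labelled FTO. Of the 10 fibroblast markers, 5 rose and 5 fell, and their summed level was 40311 to 40964 CPM in Vector and 19748 to 20524 CPM in the libraries labelled FTO. Most of that sum was Col1a1, at 25809 and 8268 CPM in the 2 groups, and Col3a1, at 10699 and 3338 CPM. Dcn rose from 47.0 to 5611 CPM and Lum from 48.7 to 432 CPM, so the sum does not measure fibroblast content. The 7 cardiomyocyte markers measured summed to 1245 to 1269 and 1616 to 1678 CPM. The 10 macrophage markers summed to 1685 to 1747 and 238 to 268 CPM, with 9 lower and 1 higher. C1qb was at 19.7 CPM in Vector and 0.0858 CPM, from 1 to 2 counts each, in the libraries labelled FTO. Cd163 was at 5.28 and 2.81 CPM, while Adgre1 rose from 6.81 to 31.7 CPM. The 6 epicardial and mesothelial markers summed to 37.7 to 37.9 and 137 to 154 CPM, with 4 called higher and 1 lower. Msln was at 2.83 and 87.1 CPM and Upk3b, the lower one, at 4.61 and 2.58 CPM. The 5 epithelial markers summed to 4.57 to 6.11 and 9.68 to 13.2 CPM. Of the epithelial markers, Epcam and Cdh1 stayed under 1 CPM on average in both groups. Krt18, a keratin also found outside epithelia, was at 0.393 and 7.63 CPM (log2 fold change 4.24). Krt8 changed by 0.91 and Krt7 by -0.76 on the log2 scale, both called. In bulk RNA, fewer cells of a type and less RNA per cell cannot be told apart. The groups were separate across the transcriptome, since log2 CPM correlated over genes at 0.992 to 0.994 within groups and 0.873 to 0.880 between them.

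The PDGF receptors moved in opposite directions. Pdgfra rose 5.63-fold and Pdgfrb fell by 0.49 on the log2 scale. Among the ligands, Pdgfa fell to 0.315 of its Vector level, while Fgf10 rose 2.67-fold, as did, from few counts, Fgf7 (3.09-fold). Of the 10 genes, 9 passed an adjusted p under 0.05 in the quasi-likelihood test of edgeR, with 4 higher and 5 lower, against 65.9% of all tested genes called in either direction, 33.2% higher and 32.8% lower. A call with at least a 2-fold change was made for 5 of the 10, against 19.6% of tested genes. Fgf7 is in these counts, although it passed the filter only through the libraries labelled FTO, where it is high. In 8 of the 10, all libraries of one group lay above all of the other, against 70.3%. The median absolute log2 fold change was 0.89 for the 10 genes and 0.36 for all tested genes. The median signed change was -0.18, against 0.00 for all tested genes. The 10 genes were chosen with earlier results of these data known, so these comparisons with all tested genes are not independent of the data.

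**Figure D1:**
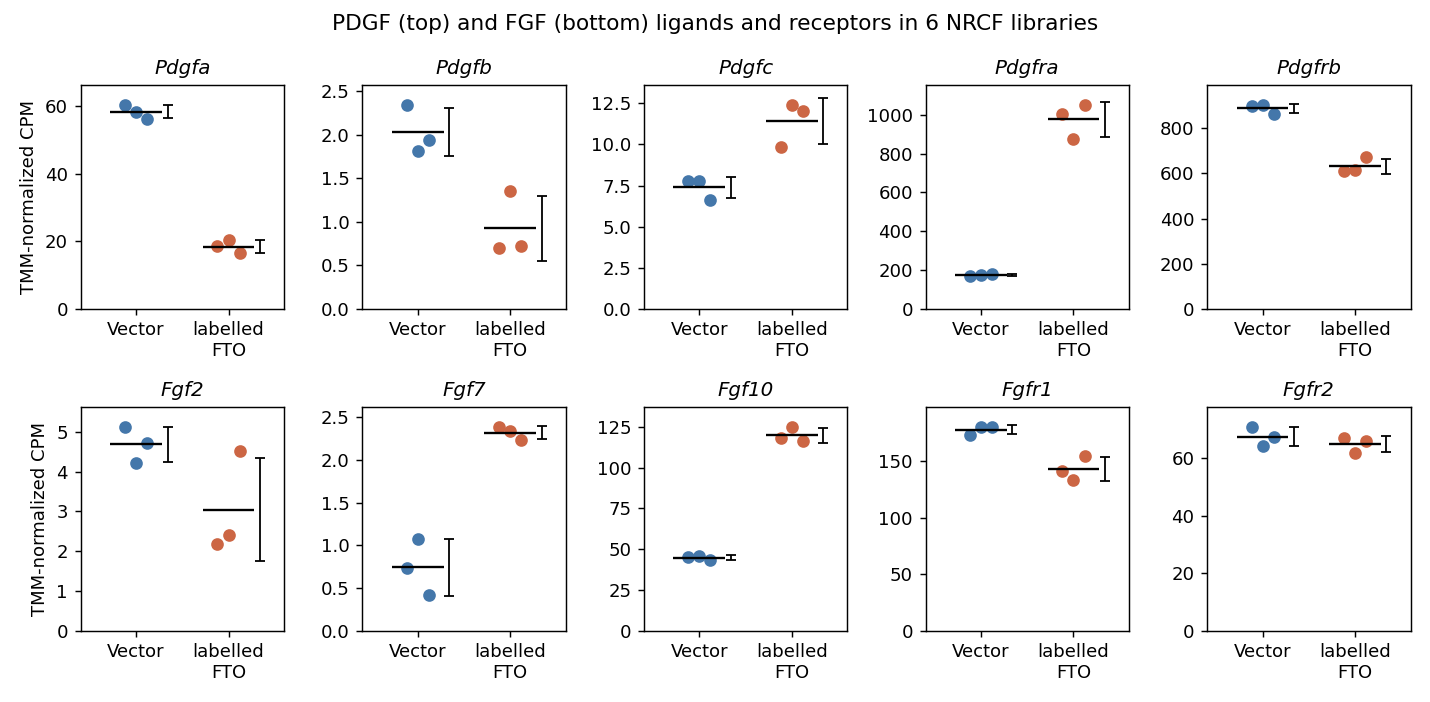
TMM-normalized CPM of the 10 genes in each library, with 3 Vector libraries (blue) and 3 libraries labelled FTO (orange); lines are means and bars are SD. Pdgfra, Pdgfc, Fgf7 and Fgf10 lay higher in all 3 libraries labelled FTO, Pdgfa, Pdgfb, Pdgfrb and Fgfr1 lay lower in all 3, and Fgf2 and Fgfr2 overlapped.

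The promoters of the members with the largest rise and the largest fall, Pdgfra and Pdgfa, are shown because these transcripts moved the most in opposite directions. They come from RefSeq on the GRCr8 build, 250 bases before to 50 after the annotated start, and are not from the rn6 build of the counts. In all, 8 of the 10 genes had an entry. Capitals mark matches on either strand to the C/EBP motif TTGCNNAA, the AP-1 motif TGANTCA, the GC box GGGCGG and the STAT motif TTCNNNGAA, which were chosen after the sequences were seen and do not overlap each other here.
Pdgfra, chr14:33408467-33408766, minus strand: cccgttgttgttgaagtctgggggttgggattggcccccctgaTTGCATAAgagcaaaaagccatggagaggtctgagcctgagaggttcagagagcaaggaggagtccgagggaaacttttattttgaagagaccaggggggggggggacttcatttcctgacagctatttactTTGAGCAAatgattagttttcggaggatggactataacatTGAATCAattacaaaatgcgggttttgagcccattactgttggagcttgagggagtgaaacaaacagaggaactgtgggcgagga
Pdgfa, chr12:20759116-20759415, plus strand: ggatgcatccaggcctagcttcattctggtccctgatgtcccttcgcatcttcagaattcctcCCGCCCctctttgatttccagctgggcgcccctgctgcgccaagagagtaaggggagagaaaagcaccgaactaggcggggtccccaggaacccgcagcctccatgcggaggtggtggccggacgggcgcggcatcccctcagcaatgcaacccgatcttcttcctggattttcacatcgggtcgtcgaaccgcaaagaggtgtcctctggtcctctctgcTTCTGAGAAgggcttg
The Pdgfra window held 2 C/EBP matches and 1 AP-1 match and no GC box. The Pdgfa window held 1 GC box and 1 STAT match. Among the other members with an entry, Fgf10, Fgf7 and Pdgfc, all higher in the libraries labelled FTO, held none of these motifs. Pdgfb, which was lower, held 1 GC box and 1 C/EBP match. Fgfr2 held 2 GC boxes and Fgf2 held 1 STAT match. Of 33469 promoters of this length, 10.6% held the C/EBP motif, 7.33% the AP-1 motif, 33.1% the GC box and 8.87% the STAT motif. A match describes letters in this window and not a bound site.

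Pdgfra encodes the receptor that binds the PDGF A, B and C chains. It stood at 168, 173 and 179 CPM in Vector replicates 1, 2 and 3 and at 1005, 875 and 1050 CPM in the FTO replicates 1, 2 and 3. Every library labelled FTO was thus far above every Vector library. The log2 fold change was 2.49 (SE 0.0606, adjusted p = 1.3e-14), with a 95% interval of the fold of 5.15 to 6.16, and it lay at percentile 96.6 of all tested genes by signed change.

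Pdgfrb encodes the receptor for PDGF-B and PDGF-D. Its level was 897, 902 and 865 CPM in Vector and 613, 614 and 671 CPM in the libraries labelled FTO. The groups did not overlap, and the log2 fold change was -0.49 (SE 0.0438, adjusted p = 1.1e-07). Pdgfrb also marks mural cells. The 8 mural markers other than Pdgfrb summed to 1117 to 1143 CPM in Vector and 754 to 792 CPM in the libraries labelled FTO, with 3 of 7 tested markers higher and 4 lower, and Rgs5 under 1 CPM on average in both groups. Among them, Kcnj8 and Des changed by 4.89 and 2.45 and Notch3 and Myh11 by -3.91 and -3.53. Their part in the result was not tested.

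Pdgfa encodes the A chain. It was measured at 60.2, 58.4 and 56.3 CPM in Vector and at 18.5, 20.4 and 16.4 CPM in the libraries labelled FTO. The groups lay well apart, with a log2 fold change of -1.67 (SE 0.0778, adjusted p = 3.8e-11), at percentile 4.47 of the tested genes. Thus this ligand gene was lower where Pdgfra was higher, while Pdgfc, another ligand gene of that receptor, was higher too (log2 fold change 0.63).

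Pdgfb, which encodes the B chain, was scarce, with 27 to 32 counts per Vector library and 10 to 18 per library labelled FTO. Its level was 2.34, 1.81 and 1.94 CPM in Vector and 0.701, 1.36 and 0.726 CPM in the libraries labelled FTO. The groups did not overlap, and the log2 fold change was -1.15 (SE 0.306, adjusted p = 0.0039), with a wide 95% interval of the fold from 0.286 to 0.708. Pdgfc encodes the C chain, which is secreted inactive and cut by proteases. It was at 7.75, 7.78 and 6.65 CPM in Vector and 9.82, 12.4 and 12.1 CPM in the libraries labelled FTO. All 3 of the latter were higher, by a log2 fold change of 0.63 (SE 0.129, adjusted p = 5.4e-04). Macrophages can also make PDGF chains, and of 10 macrophage markers 9 fell and Adgre1 rose in the libraries labelled FTO. Their part in these results was not tested.

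Fgf10 encodes a mesenchymal ligand of FGFR2. Its level was 45.1, 46.0 and 43.4 CPM in Vector and 118, 125 and 116 CPM in the libraries labelled FTO. The spread within each group was small beside the gap, and the log2 fold change was 1.42 (SE 0.0534, adjusted p = 2.8e-12). Fgf7, keratinocyte growth factor, was much rarer, with 6 to 16 counts per Vector library and 31 to 40 per library labelled FTO. It was at 0.732, 1.07 and 0.416 CPM in Vector and at 2.38, 2.34 and 2.23 CPM in the libraries labelled FTO. The groups did not overlap, and the log2 fold change was 1.63 (SE 0.309, adjusted p = 2.8e-04), with a 95% interval of the fold of 1.95 to 4.88. Since Fgf7 needed the libraries labelled FTO to pass the filter, the filter favoured a difference here, and with no filter on low counts the change was 1.63 (adjusted p = 3.7e-05 over 17166 genes).

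Fgf2, basic FGF, gave the least certain call. It stood at 5.12, 4.23 and 4.71 CPM in Vector and at 2.17, 2.42 and 4.52 CPM in the libraries labelled FTO. FTO replicate 3 lay within the Vector range and replicates 1 and 2 lay below it. The log2 fold change was -0.58 (SE 0.239, adjusted p = 0.0454). The adjusted p was 0.0512 with DESeq2, and 0.121, 0.053, 0.0943, 0.182 and 0.114 without Vector replicate 1, 2 or 3 or without FTO replicate 1 or 2. Without FTO replicate 3 the change was -1.03 (adjusted p = 4.2e-04). Nudt6, which is transcribed antisense to Fgf2, was at 11.3 ± 1.90 and 8.46 ± 0.955 CPM (log2 fold change -0.40, adjusted p = 0.0183, and 0.114 or 0.0517 without Vector replicate 1 or FTO replicate 2), and the use of strand in counting is not stated, so reads of the pair may not be fully told apart.

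Fgfr1 encodes the main FGF receptor of mesenchymal cells. It was at 174, 180.4 and 180.4 CPM in Vector and at 141, 133 and 154 CPM in the libraries labelled FTO. All 3 of the latter were lower, by a modest log2 fold change of -0.32 (SE 0.0527, adjusted p = 8.4e-05). Fgfr2, the receptor of FGF7 and FGF10 in its IIIb form, was at 71.0, 64.3 and 67.5 CPM in Vector and 67.1, 62.0 and 66.2 CPM in the libraries labelled FTO. The groups overlapped, and the log2 fold change of -0.05 (SE 0.0574, adjusted p = 0.427) had a 95% interval of the fold of 0.885 to 1.05. It was the only one of the 10 genes not called. Counts per gene do not separate the splice forms.

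**Figure D2:**
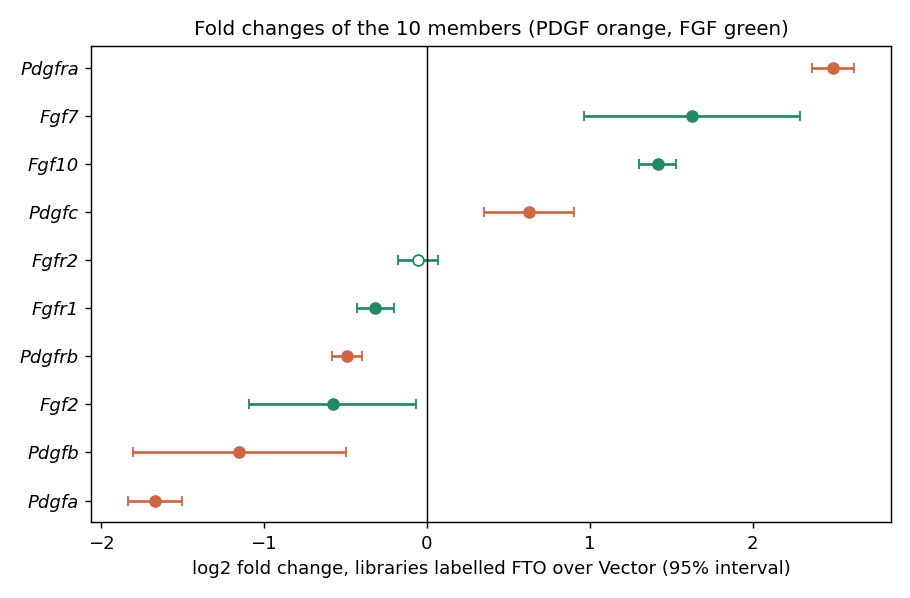
Fitted log2 fold change of each gene with its 95% interval, PDGF genes in orange and FGF genes in green; the open symbol did not pass an adjusted p of 0.05. Pdgfra (2.49), Fgf7 (1.63) and Fgf10 (1.42) lie farthest to the right, Pdgfa (-1.67) and Pdgfb (-1.15) farthest to the left, and the intervals of Pdgfb, Fgf2 and Fgf7, the rarest genes, are the widest.

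Ratios of members within a library need no scaling between libraries, and 4 pairs were compared. The log2 count ratio of Pdgfra to Pdgfrb was -2.41, -2.38 and -2.28 in Vector and 0.71, 0.51 and 0.65 in the libraries labelled FTO. The ratio was thus 7.89-fold higher in the latter, beyond the spread of either group (SD 0.07 and 0.10). The ratio of Pdgfa to Pdgfc fell by 2.28 on the log2 scale, from 2.98 ± 0.09 to 0.69 ± 0.24 (SD, n = 3 each). That of Fgfr1 to Fgfr2 differed by -0.27, with 1.40 ± 0.10 against 1.13 ± 0.08. These 3 ratios did not overlap between the groups, which gave p = 0.1 in a two-sided exact permutation test, the smallest it allows with 3 against 3, and 0.133 after Benjamini-Hochberg adjustment over the 4 pairs. The ratio of Fgf7 to Fgf10 overlapped and differed by 0.28 (exact permutation p = 0.7, adjusted 0.7), and without Vector replicate 3 its difference was -0.04.

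**Figure D3:**
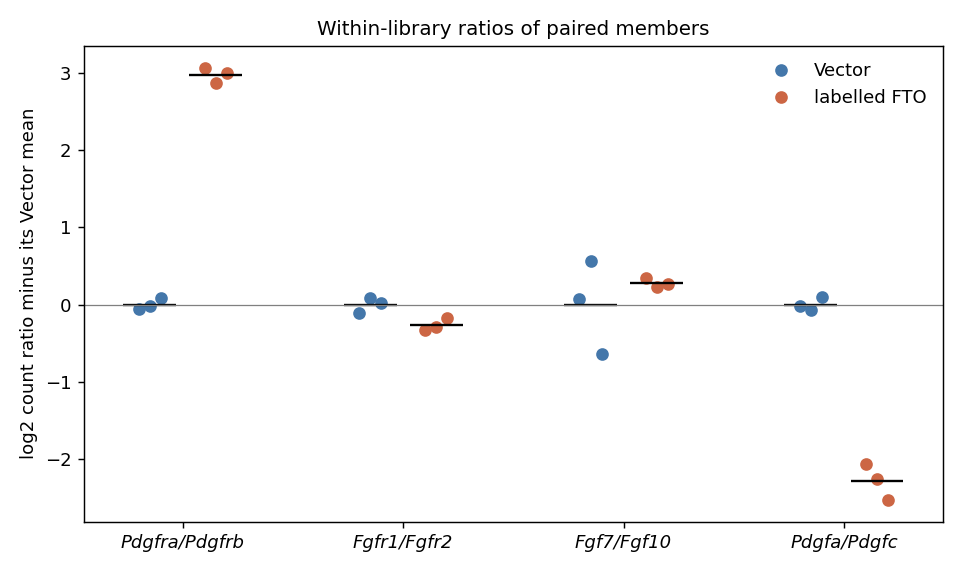
Log2 count ratio of 4 pairs of genes in each library minus the mean of the Vector libraries (blue Vector, orange labelled FTO, lines are means). The Pdgfra to Pdgfrb ratio lies 2.98 above Vector and the Pdgfa to Pdgfc ratio differs from it by -2.28, while the Fgf7 to Fgf10 ratios overlap.

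All 12 other PDGF and VEGF family genes passed the adjusted threshold, 7 higher and 5 lower, where 65.9% of all tested genes passed it. Pdgfd, the fourth PDGF chain and a ligand of PDGFRβ, changed by -1.09 (SE 0.0699) and Pdgfrl, a PDGF receptor-like gene, by -1.38 (SE 0.0846). Of the 4 PDGF chains, then, Pdgfa, Pdgfb and Pdgfd were lower and Pdgfc was higher. Among VEGF ligands, which drive vessel and lymphatic growth, Vegfc changed by -1.18, Vegfd by 0.89, Pgf by 0.46, Vegfb by 0.34 and Vegfa by 0.15. The call on Vegfa was lost without Vector replicate 2 (adjusted p = 0.0606) or FTO replicate 1 (0.0677). Of the VEGF receptors, Kdr changed by 2.13 from a low level of 1.87 ± 0.345 CPM, Flt4 by 0.57 and Flt1 by -0.57. The co-receptors Nrp1 and Nrp2 changed by -0.44 and 0.32. The 7 endothelial markers summed to 31.8 to 34.3 CPM in Vector and 49.7 to 53.7 CPM in the libraries labelled FTO, with Cdh5 at 1.88 and 5.65 CPM, Tek at 11.5 and 25.8 CPM and Egfl7 at 5.28 and 10.3 CPM, all called higher, Esam called lower (-0.89), and Emcn and Vwf under 1 CPM on average in both groups. Their part in the change of Kdr was not tested.

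Few other genes of the FGF family were expressed. The list includes Fgf11, Fgf12, Fgf13 and Fgf14, which encode intracellular proteins rather than secreted ligands. Of 19 in the files, where Fgf15 has the symbol Fgf19, 6 had no count in any library and 13, these included, did not pass the filter, with at most 0.554 CPM in any library. Among the 6 tested, Fgf1, acidic FGF, which binds all FGF receptors, was the only one called, against 65.9% of all tested genes. Fgf1 was at 18.0 ± 0.541 CPM in Vector and 9.80 ± 0.458 CPM in the libraries labelled FTO (log2 fold change -0.87, adjusted p = 1.1e-06). The other 5 did not pass. They were Fgf9 (-0.86, adjusted p = 0.11), Fgf12 (0.66, adjusted p = 0.0601), Fgf13 (0.25, adjusted p = 0.493), Fgf18 (-0.04, adjusted p = 0.921) and Fgf22 (-0.33, adjusted p = 0.139). Fgf12 passed without FTO replicate 2 (adjusted p = 0.0154), with no filter on low counts (0.0349) and with the replicate block (0.0401), and Fgf9 passed without FTO replicate 3 (0.0442). Single libraries moved these values. Fgf9 was at -0.38 without Vector replicate 1 and -1.31 without FTO replicate 3, Fgf12 at 0.27 without FTO replicate 3, and Fgf22 at -0.16 without FTO replicate 1.

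Of 6 tested genes for other FGF receptors, co-receptors and binding proteins, 1 was higher and 3 were lower. Of all tested genes, 33.2% were higher and 32.8% lower. Flrt2, a membrane protein of the FLRT family that can bind FGF receptors, rose from 40.1 ± 1.74 to 276 ± 34.5 CPM (log2 fold change 2.79, adjusted p = 9.9e-14). Fgfrl1, a receptor without a kinase domain, fell from 37.7 ± 1.24 to 11.5 ± 1.49 CPM (log2 fold change -1.70, adjusted p = 2.3e-10). Flrt3 changed by -2.00 and Fgfr4 by -1.21, with 95.5 and 35.7 counts per library on average over all 6 libraries. Fgfr3 changed by 0.15 and did not pass (adjusted p = 0.0899), although it did without FTO replicate 2 (0.0177).

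Proteases that activate PDGF chains changed in both directions. Plau, the urokinase that can activate PDGF-D, was at 82.0 ± 3.41 CPM in Vector and 3.33 ± 0.918 CPM in the libraries labelled FTO (log2 fold change -4.62, SE 0.110, adjusted p = 1.0e-14). Plat, the tissue plasminogen activator that cuts PDGF-C, was at 266 ± 9.84 and 383 ± 5.69 CPM (log2 fold change 0.52, SE 0.0416, adjusted p = 2.6e-08). Pcsk5 and Pcsk6, proprotein convertases of the furin family, changed by 2.66 and -1.18. Furin itself changed by 0.10 with an adjusted p of 0.0573, and it passed in 3 of 13 alternatives, among them the fit without FTO replicate 2 (adjusted p = 0.0259). In all, 2 of the 6 genes were higher and 3 lower, against 33.2% and 32.8% of all tested genes.

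Heparan sulfate carries FGFs to their receptors, and 15 of 18 tested genes for its core proteins and enzymes were called, 5 higher and 10 lower, against 33.2% and 32.8% of all tested genes, with a median log2 fold change of -0.33. Syndecan-4 (Sdc4) rose from 144 ± 0.545 to 1308 ± 30.7 CPM (log2 fold change 3.19, SE 0.0415), while Sdc2 changed by -1.45 and Sdc3 by -1.02. The glypicans Gpc6 and Gpc4 changed by -2.46 and -1.75. Both extracellular sulfatases, which trim 6-O-sulfate from heparan sulfate, were higher, with Sulf1 at 195 ± 1.97 and 1122 ± 52.0 CPM (log2 fold change 2.52, SE 0.0447) and Sulf2 at 0.56 on the log2 scale. The 6-O-sulfotransferase genes, whose products add that group, went in opposite directions, with Hs6st1 at 170 ± 1.70 and 272 ± 14.0 CPM (log2 fold change 0.68, adjusted p = 3.3e-09) and Hs6st2 at 140 ± 2.31 and 55.6 ± 7.01 CPM (-1.33, adjusted p = 1.9e-10). Hspg2 is not analysed here.

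Receptor-proximal transducers carry the signal inside the cell. Of 29 tested, 6 were higher and 12 lower, where 33.2% of all tested genes were higher and 32.8% lower. Changes ran from -1.69 to 0.79, with a median absolute log2 fold change of 0.24, against 0.36 for all tested genes. Of these transducers, 1 was called with at least a 2-fold change, against 19.6% of all tested genes. That gene was Nck2, an SH2 and SH3 adaptor, at -1.69 (SE 0.0783, adjusted p = 3.6e-11). The docking proteins Gab1 and Gab2 changed by -0.96 and -0.92. Map2k1, which encodes MEK1, changed by 0.79, the adaptor Shc1 by 0.39, the kinase gene Mapk3 by 0.20 and Ptpn11, which encodes SHP2, by 0.15. Frs2, the docking protein of FGF receptors, changed by -0.15 and did not pass (adjusted p = 0.0657), but passed in 4 of 13 alternatives, with 0.0436 without Vector replicate 1 and 0.00257 without FTO replicate 3. Crkl is not analysed here. Of 8 genes for receptor turnover and dephosphorylation, 3 were higher and 3 lower, against the same shares of 33.2% and 32.8%. Their median absolute log2 fold change was 0.72. The phosphatase genes Ptpn1 and Ptpn2 changed by 1.81 and 0.63 and the receptor phosphatase gene Ptprj by -0.64 (adjusted p = 2.7e-06). Of the ubiquitin ligase genes, Cblb changed by 1.58 and Cbl by -0.79 (adjusted p = 0.00179). The Ras GTPase-activating gene Rasa1 changed by -0.86.

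Genes that FGF and ERK signalling is known to induce did not move one way. Of 14 tested, 5 were higher and 7 lower, where 33.2% of all tested genes were higher and 32.8% lower. The median log2 fold change of the 14 was -0.13. Dusp4, an ERK phosphatase, changed by -2.07, and the receptor tyrosine kinase inhibitors Spry1 and Spry4 by -1.85 and -1.36. Fosl1, an AP-1 subunit, rose by 1.51, and Dusp6 and Spry2 by 0.47 and 0.45. Of the ETS factors, Etv5 changed by -0.88 and Etv4 by 0.40, and the immediate-early gene Egr1 changed by -0.33. All genes named in this paragraph passed the adjusted threshold.

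**Figure D4:**
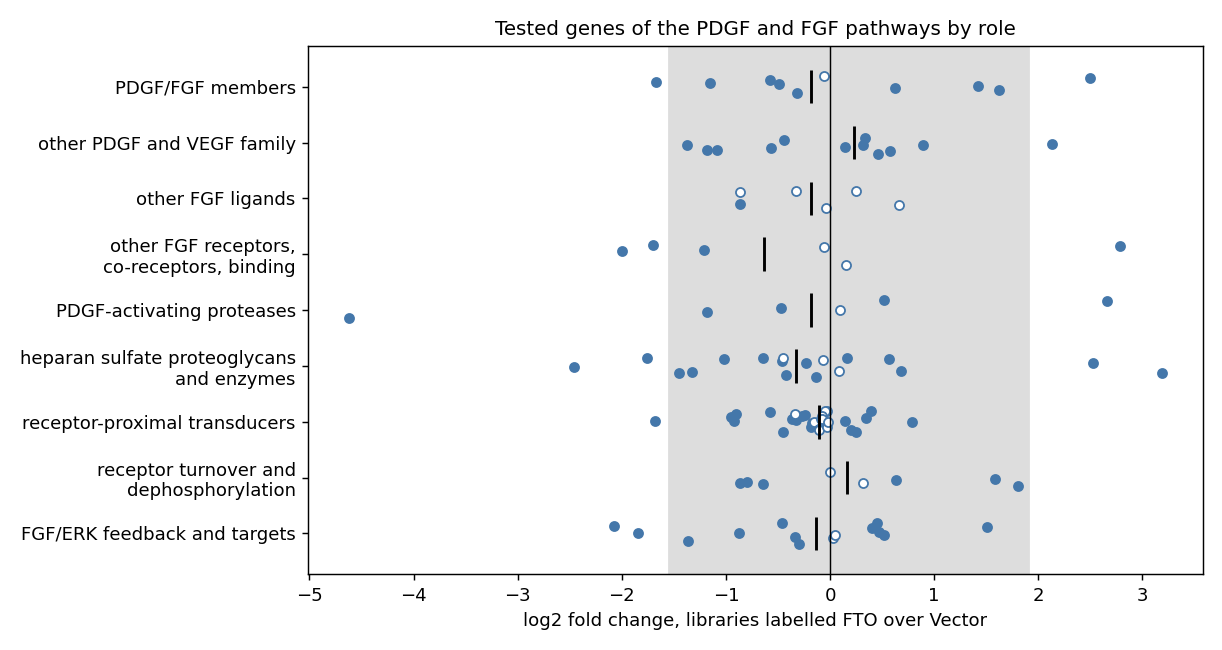
Log2 fold changes of the tested genes by role; filled points passed an adjusted p of 0.05, open points did not, black bars are list medians, and the grey band spans percentiles 5 to 95 of all tested genes (-1.55 to 1.91). Points fall on both sides of 0 in each list, and the transducers have the smallest median absolute change (0.24).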

How the data were processed

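RNA-seq was performed on NRCFs in 3 Vector and 3 FTO-labelled samples. The files deposited by the authors hold raw counts, in whole numbers and by gene symbol. The submitters' processing notes name Trimmomatic and rn6. The aligner, counting program, annotation and use of strand are not given in the sources used here. Groups were taken from the genotype labels. Genes were kept with filterByExpr (minimum count 10), scaled by TMM and compared with the two-sided quasi-likelihood test of edgeR 4.0.16 in R 4.3.3 without covariates, with Benjamini-Hochberg adjustment over 12941 genes. CPM is TMM-normalized, and the SE is the absolute log2 fold change over the root of F. A count of 0.5 was added for ratios. Counting error alone limits genes near 3 counts, worth 0.168 to 0.227 CPM. Alternatives were DESeq2 1.42.0, limma-voom (limma 3.58.1), other scalings and filters, the replicate block and leaving out each library. The members and lists were chosen with earlier results of these data known. Named list genes were the tested genes of the PDGF and VEGF list and of the list of other FGF family genes. In other lists, they were the 3 largest changes without overlap and with at least 100 counts. Other list genes were chosen after their values were seen. The procedure was also run on simulated counts in which few genes changed, while 65.9% of tested genes were called in these data. That run therefore cannot show how the scaling and the test behave when most genes change.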

Additional observations from a re-analysis of the deposited data

How the results depend on the processing

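Each of the 10 genes kept its direction under all 13 alternatives, and only Fgf2 lost its call, in 6 of them. The number of called members was 8 to 9. Over all genes, 7795 to 9009 were called. Among the other FGF family genes, 4 of 13 tested were called with low counts unfiltered, in place of 1. That fit called 9009 of 17166 genes. With the replicate block 2 of these FGF family genes were called, and 1 to 2 when single libraries were left out. Among 70 other named genes, 9 changed their call or sign in at least 1 alternative. Fgf18 turned positive with limma-voom (0.0165) and ran from -0.343 (without Vector replicate 2) to 0.261 (without Vector replicate 1) when single libraries were left out, and Fgf13 ran between -0.0821 and 0.476 when FTO replicate 1 or 3 was the library left out, neither with a call in these fits. The difference in the Fgf7 to Fgf10 ratio was -0.0425 to 0.563 when single libraries were left out. The cause was not tested. No pairing by replicate number was detected. Libraries with the same number deviated from their group means with correlations of 0.003, -0.069 and 0.021 over genes, and those with different numbers with -0.094 to 0.087. These values cannot show whether libraries with the same number shared a cell preparation. With the replicate block 8399 genes and 9 of the 10 members were called. Depth limits Pdgfb, Fgf7 and Fgf2, which had 21.3, 22.8 and 57.5 counts per library on average.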

Other observations

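Some genes of the FGF system were below the filter and were not tested in the main fit. Kl, which encodes the co-receptor of the hormone FGF23, had 14, 3 and 14 counts in Vector replicates 1, 2 and 3 and 0, 1 and 0 counts in the libraries labelled FTO. Fgf16, a ligand of the FGF9 subfamily, had 1, 1 and 2 counts in Vector and 7, 5 and 7 in the libraries labelled FTO. Fgf11 had 4, 8 and 8 counts in Vector and 1, 3 and 5 in the libraries labelled FTO. Fgf23 had 0 counts in each Vector library and 2, 4 and 3 in the libraries labelled FTO. No count exceeded 14 in a library, and the main test did not cover these differences. With no filter on low counts, 13 genes of the list of other FGF family genes were tested and 4 called, 3 higher and 1 lower. Of the other FGF receptors, co-receptors and binding proteins, 9 were then tested and 5 called, 1 higher and 4 lower. Over all genes, that fit called 9009 of 17166, with 4536 higher and 4473 lower. Values of that fit for these single genes are not given here.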
